A study of Mus musculus with 6 samples.

Results

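Mouse chromosome 9 was examined for sites at which the long noncoding RNA Bloodlinc (alncRNA-EC7) was recovered on chromatin. All peaks placed on chromosome 9 in the 7 deposited lists were taken, 2460 of 40030 entries. They were 1135 of 18114 peaks from the even-numbered capture probes, 1177 of 20596 from the odd-numbered probes, 42 of 517 from a pulldown whose label names no probe pool, 24 of 268 consensus intervals, 25 of 124 no-probe control peaks, 23 of 141 RNase control peaks and 34 of 270 input peaks. Each consensus interval is the stretch common to a pulldown, an even and an odd peak, so those 24 entries repeat positions of the other lists. The chromosome was chosen by its peak counts and densities in these same lists, which are therefore given as descriptions without a test.

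All 6 libraries came from MEL cells, a mouse erythroleukaemia line that starts erythroid maturation in dimethyl sulfoxide (DMSO), and every label gives 5 days in 2% DMSO with no genetic change named. The names of the input peaks carry a day 0 tag instead, which leaves its day in doubt. There was 1 library per condition, so no difference below has a replicate check, and peaks of a library are not replicates of a condition. If the pulldown was made by combining reads of the even and odd captures, which its label leaves unsaid, the consensus would not join separate libraries.

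In ChIRP, biotinylated oligonucleotides that tile an RNA pull it out of crosslinked cells together with the DNA it touches. Splitting the oligonucleotides into an even and an odd pool gives a pair of captures that share the RNA but no probe. A position that only one pool recovers can come from DNA or other RNAs that its probes bind. RNase removes the RNA that should link probes to chromatin, a capture without probes shows what the beads retain, and the input shows how sheared chromatin maps. Enhancer-derived noncoding RNAs such as Bloodlinc are transcribed from regulatory DNA near erythroid genes, and ChIRP shows where an RNA lies on chromosomes other than the one it is made from. Bloodlinc itself is transcribed from chromosome 11, so every chromosome 9 site lies away from its own gene in sequence. Positions are in mm9 and counted from 1. No mm9 gene annotation or genome was used here, so neither genes nor sequences are given for these sites.

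Chromosome 9 was among the densest autosomes in all 4 Bloodlinc lists. Called positions ran from 3000030 to 123953327, a span of 121 Mb. The even list had 9.38 peaks per Mb there against 7.18 on the other autosomes, a ratio of 1.31, and the odd list 9.73 against 8.19, a ratio of 1.19. Both ranked 3rd of 19 autosomes, below chromosomes 15 and 19. The pulldown had 0.347 peaks per Mb against 0.198, a ratio of 1.75 and also rank 3. For the consensus the values were 0.198 intervals per Mb against 0.103, a ratio of 1.93 and rank 2. The 24 intervals were 8.96% of the consensus, with an exact (Clopper-Pearson) 95% binomial interval of 5.82% to 13.03%, and chromosome 9 made up 4.71% of the span of all chromosomes. Such intervals cover the counting of peaks only. Chromosome 9 ranked 1st in the 3 control lists, with ratios of 5.18 (no-probe), 4.43 (RNase) and 5.83 (input), and those peaks lay mainly at 1 end of the chromosome, as given below.

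**Figure D1:**
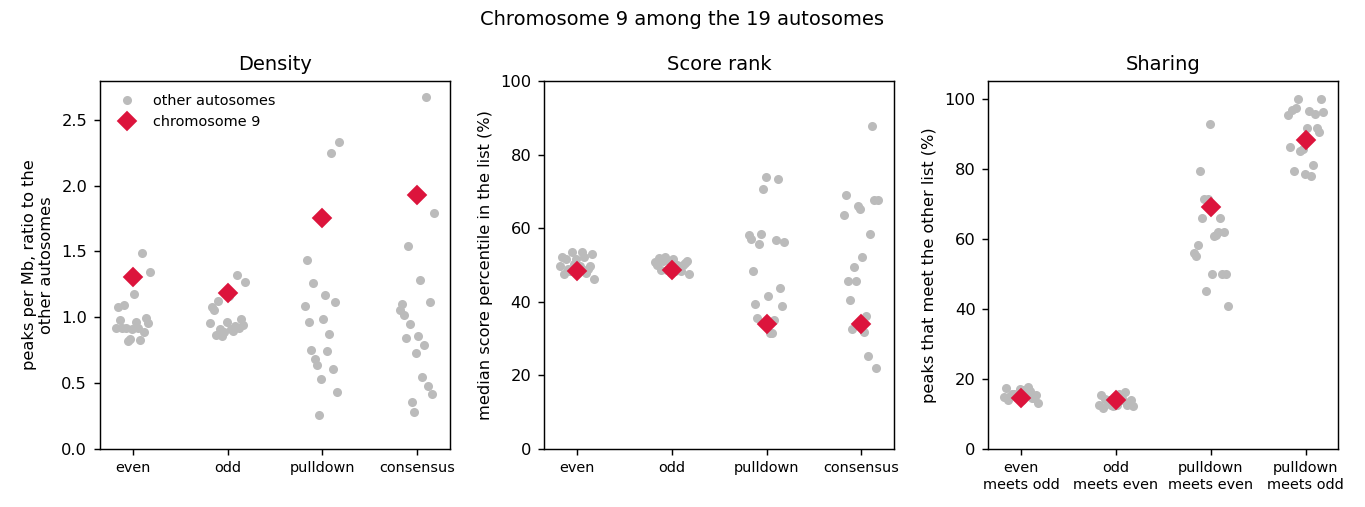
Chromosome 9 (red diamonds) beside the 18 other autosomes (grey points), for peak density as a ratio to the remaining autosomes, median score percentile within each list, and the share of peaks that meet another list. Chromosome 9 lies high in density (ratios 1.31, 1.19, 1.75 and 1.93), with chromosome 15 above it in each list (1.49, 1.32, 2.25 and 2.67). It lies inside the spread of the other autosomes in density, score rank and sharing.

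Along the chromosome, even and odd peaks were most frequent in the first 25 Mb and rose and fell together. In fixed bins of 5 Mb, counted from the chromosome start, the bin at 20 to 25 Mb (bin 5) held 117 even and 97 odd peaks, the highest count of chromosome 9 in both lists. The bin at 10 to 15 Mb came next with 85 even and 78 odd peaks. These were densities of 23.4 and 19.4 peaks per Mb in bin 5, or 2.67 and 2.08 times those of the rest of the chromosome. The bin that follows directly, at 25 to 30 Mb, held 19 even and 23 odd peaks, the fewest of any full bin here in either list. The first bin, of which only 2.00 Mb lay within called positions, held 13 even and 7 odd peaks. The median full bin held 44 even and 46 odd peaks.

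Bin 5 also stood high beyond chromosome 9. Of 466 full 5 Mb bins on the autosomes it ranked 2nd for even peaks and 3rd for odd peaks, where the other autosomes had medians of 33 and 39. Its 5 pulldown peaks ranked 8th and its 4 consensus intervals 3rd. The 2 chromosome 3 bins numbered 20 and 21 were the others at the top, with 116 and 118 even peaks. Within bin 5, peaks gathered at 21 to 22 Mb, with 38 even and 34 odd peaks in 1 Mb, and thinned to 11 even and 9 odd peaks at 24 to 25 Mb. From 25 to 26 Mb there were 5 even peaks and 1 odd peak. The densest part, at 20 to 22 Mb, held no pulldown peak. All 5 pulldown peaks lay between 22 and 25 Mb. Over the 23 full bins the even and odd counts had a Spearman rho of 0.79 and a Pearson r of 0.88, and 0.76 and 0.79 without bin 5. The points share the same 2 libraries and the same stretches of DNA, with their base composition, so this is a description.

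The position of the highest bin moved with the binning. With bins of 2 Mb the densest even bin was at 14 to 16 Mb (34.5 peaks per Mb) and the densest odd bin at 20 to 22 Mb (26.5 peaks per Mb), and with bins of 10 Mb both were at 10 to 20 Mb. A pair of dense stretches, around 13 to 16 Mb and around 20 to 24 Mb, thus lay in the first 25 Mb. Pulldown peaks and consensus intervals were also denser in the first 25 Mb, with 0.636 against 0.283 pulldown peaks per Mb beyond it and 0.364 against 0.162 consensus intervals, ratios of 2.25 in each that rest on 14 peaks and 8 intervals in the stretch. The ratio was 1.82 for even and 1.48 for odd peaks. Bin by bin the lists differed. Consensus intervals occurred in 13 of the 25 bins, and the bins at 20 to 25 Mb and at 65 to 70 Mb held the most, 4 each, although the latter had only 45 even and 56 odd peaks. The bin at 15 to 20 Mb had 60 even and 57 odd peaks but no pulldown peak.

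**Figure D2:**
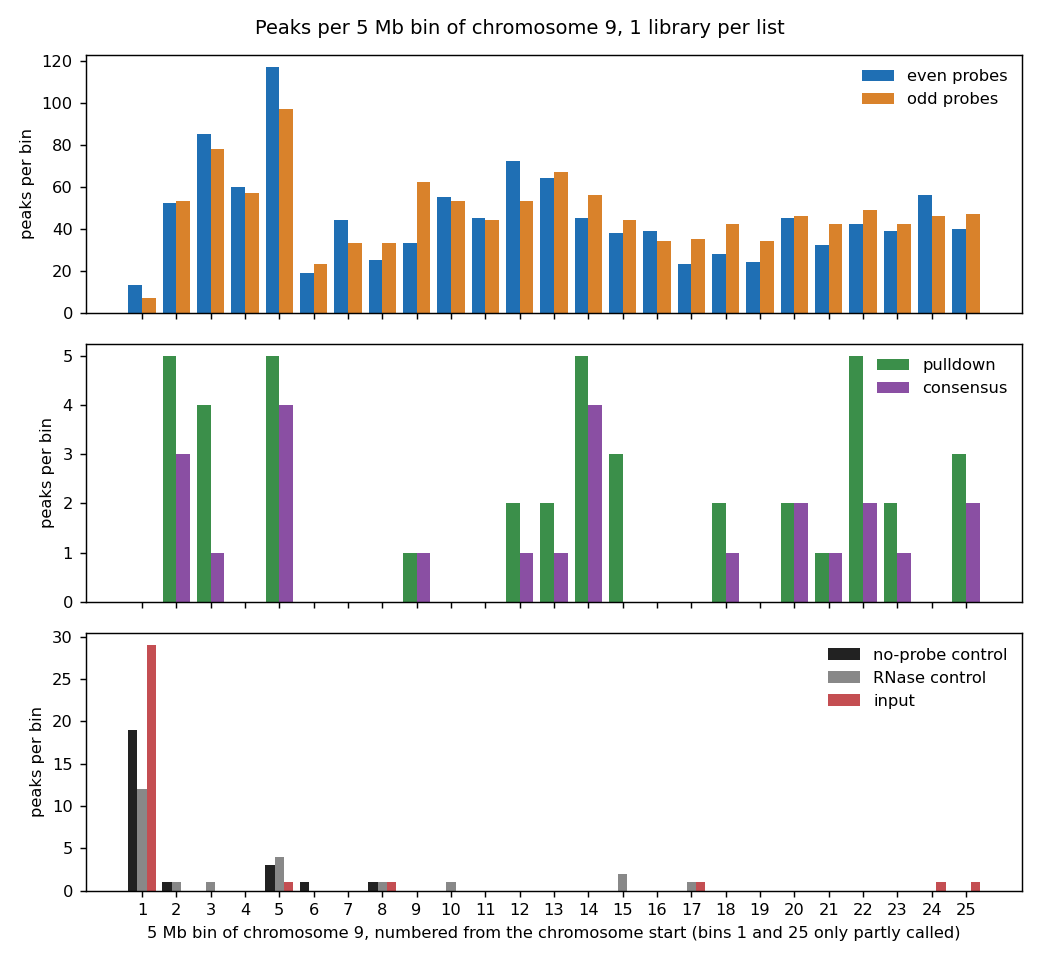
Peaks per 5 Mb bin along chromosome 9 (x axis, bin number from the chromosome start), with the even and odd pools in the top panel, the pulldown and the consensus in the middle panel, and the 3 control lists in the bottom panel. Even and odd counts peak together in bin 5 (117 and 97) and drop to 19 and 23 in bin 6, whereas control peaks stand mainly in bin 1.

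The numbers in the peak names showed that the first 25 Mb differed from the rest of the chromosome in the share of numbered peaks that were kept. In the pulldown, even and odd lists the numbers rose in genomic order and had gaps, so the span of numbers in a region gives about how many peaks were numbered there before the authors' selection, whose rule no label or header gives. The 25 Mb border was set after the listed counts per bin were seen, and those counts enter the shares that follow. Their intervals are therefore no test of a difference between the parts. In the first 25 Mb, 327 of 1245 numbered even peaks were listed, 26.3% (95% interval 23.8% to 28.8%). Beyond it 808 of 5724 were listed, 14.1% (13.2% to 15.0%), close to the 14.5% on the other autosomes. For odd peaks the shares were 292 of 1197, 24.4% (21.99% to 26.9%), and 885 of 5409, 16.4% (15.4% to 17.4%), where the other autosomes had 17.1%. On average over each part the density of numbered peaks was nearly level, with 56.6 per Mb in the first 25 Mb and 57.8 per Mb beyond for the even pool, and 54.4 and 54.7 per Mb for the odd pool. Both parts were above the other autosomes, which had 49.7 numbered even and 48.0 numbered odd peaks per Mb. Single bins of the first 25 Mb differed widely, from 26 (bin 1) to 82.0 (bin 5) numbered even peaks per Mb and from 16 to 77.4 numbered odd peaks. Bin 5 ranked 1st on the chromosome in numbered even peaks and 2nd in numbered odd peaks, so its high count went with more numbered peaks as well as a higher listed share. Between the first and last listed peak of each part, the pulldown had 14 listed of 289 numbered, 4.84% (2.67% to 7.99%), against 28 of 1155, 2.42% (1.62% to 3.48%), intervals that overlap. No pulldown peak was listed between 24136498 and 43999619, and the numbers of that gap were counted in neither part. Over the whole chromosome 1600 numbers lay between the first and last listed pulldown peak. These pulldown shares can therefore be too high.

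The listed share was lower after 25 Mb in both pools. Each of the 4 full bins from 5 to 25 Mb had an even listed share between 24.1% and 28.5% and an odd share between 23.2% and 26.7%, and the partly called first bin had 25% and 21.9%. In the next bin, at 25 to 30 Mb, the shares were 10.4% and 10.8%, and numbered peaks per Mb were also lower, at 36.4 and 42.4. In steps of 1 Mb, which hold few peaks each, the border was less sharp. The even share was 27.5%, 21.7%, 18.2% and 13.0% in the steps from 24 to 28 Mb, and the odd share was already 17.2% and 18.4% in the steps from 23 to 25 Mb and 22.4% at 27 to 28 Mb, after 2 steps with 1 listed odd peak each. Beyond 25 Mb no 5 Mb bin of chromosome 9 went over 21.4% (even) or 20.8% (odd). Among the 466 full autosomal bins, those 4 bins ranked 8th, 3rd, 4th and 1st for the even listed share and 24th, 4th, 7th and 10th for the odd one. A chromosome 7 bin with no numbered peak and a chromosome 12 bin with 18 (even) and 19 (odd) were not ranked. At a share of 22%, a level chosen after the values were seen, 10 of the 466 bins (2.15%) were above it in both pools. They were 4 neighbouring bins of chromosome 9, 3 neighbouring bins of chromosome 3, and single bins on chromosome 1 and, in 2 places, chromosome 15. The listed even and odd peaks of the first 25 Mb did not score higher than those beyond. Their median score percentile within the whole list was 41.8 for even and 39.6 for odd peaks, against 48.3 and 51.1 beyond 25 Mb. The 14 pulldown peaks of the stretch had a median percentile of 50.3 against 31.7 for the 28 beyond, and its 8 consensus intervals 36.0 against 32.6.

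The excess density of chromosome 9 rested in part on this stretch. Without its first 25 Mb, the ratio to the other autosomes was 1.14 for even peaks, 1.09 for odd peaks, 1.43 for the pulldown and 1.57 for the consensus. Control peaks were also more frequent in the stretch, as given below. The lists hold no read depth, and what sets the stretch apart was not tested.

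**Figure D3:**
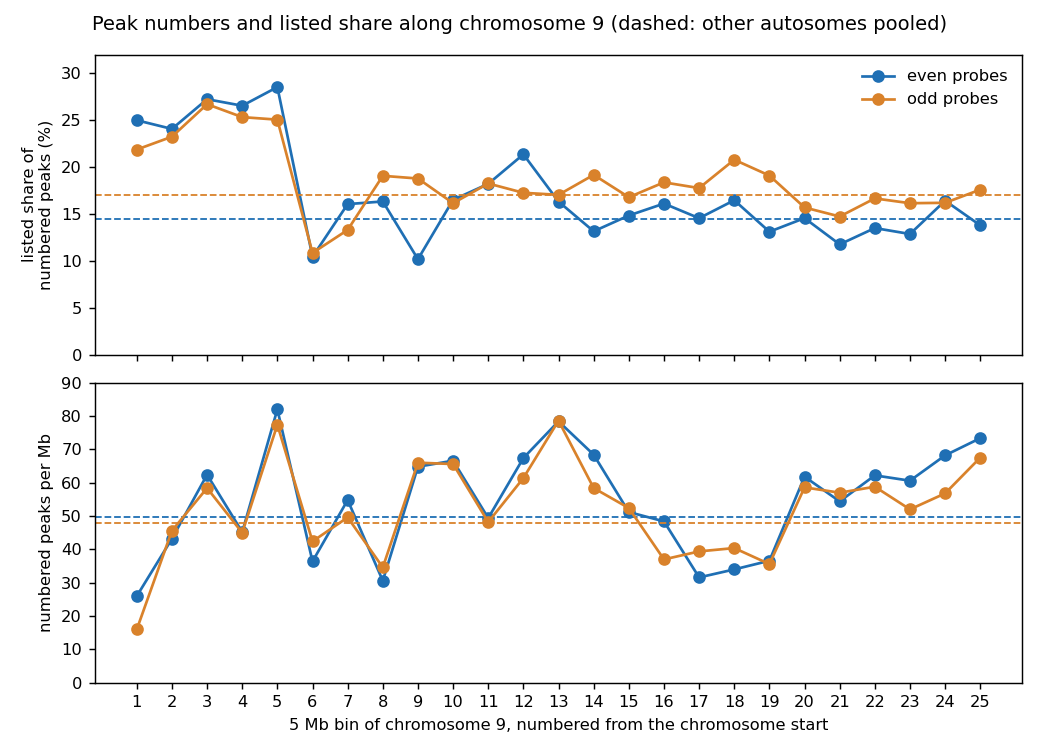
Share of numbered peaks that the authors listed (top, percent) and numbered peaks per Mb (bottom) for the even and odd pools in each 5 Mb bin of chromosome 9, with dashed lines for the other autosomes pooled. The listed share stays between 21.9% and 28.5% in bins 1 to 5 and drops to 10.4% and 10.8% in bin 6, and numbered peaks per Mb vary within both parts, from 82.0 (even) and 77.4 (odd) in bin 5 to 36.4 and 42.4 in bin 6.

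Sharing between the even and odd pools on chromosome 9 was like that elsewhere. Of the 1135 even peaks, 164 (14.4%, 12.5% to 16.6%) met an odd peak by at least 1 bp, where 15.4% of all even peaks did, and the other autosomes ranged from 13.1% to 17.5%. The same number of odd peaks, 13.9% of 1177 (12.0% to 16.0%), met an even peak, against 13.5% of all odd peaks. Of the 42 pulldown peaks, 29 (69.0%, 52.9% to 82.4%) met an even peak and 37 (88.1%, 74.4% to 96.0%) met an odd peak, against 60.2% and 91.1% over the whole pulldown list. Seen from the pools, those 29 even peaks were 2.56% of the even peaks (1.72% to 3.65%), against 1.72% of the whole even list, and the 37 odd peaks 3.14% of the odd peaks (2.22% to 4.31%), against 2.29%. The intervals of these 6 shares include the whole-list value, except that of even peaks that met a pulldown peak, whose lower end equals it to the digits given. On the other autosomes alone, 1.66% of even and 2.20% of odd peaks met a pulldown peak, values below the chromosome 9 intervals. Chromosome 9 ranked 2nd among autosomes for the even share and 3rd for the odd one. Each of the 42 pulldown peaks met a pool, and the density ratio was 1.75 for the pulldown against 1.31 (even) and 1.19 (odd). The shares of pool peaks that met the pulldown thus largely restate the densities by which the chromosome was chosen. They are no separate result on sharing. Most pool peaks stood alone: 966 even peaks (85.1%) and 1000 odd peaks (84.96%) met neither the other pool nor the pulldown, near the 84.3% and 85.5% on the other autosomes.

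The 164 pairs of even and odd peaks lay almost on top of each other. Their midpoints were a median of 18 bp apart, at most 337 bp, and they overlapped by a median of 436 bp. In 150 pairs the overlap covered at least 90% of the narrower peak. The even peak was the wider in 138 pairs, with a median width of 534.5 bp against 445.5 bp, and the odd peak lay wholly inside it in 116.

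The pools ranked these common sites differently. The even members had a median score percentile of 90.4 in their list and the odd members 42.0 in theirs, and the even percentile was the higher in 150 of 164 pairs. Spearman's rho between the scores was 0.42 and Pearson's r 0.34 across these 164 pairs, which share 1 even and 1 odd library. When even peaks were divided by score into 4 equal classes of the whole list, 129 of 252 chromosome 9 peaks in the highest class met an odd peak (51.2%, 44.8% to 57.5%) and 6 of 308 in the lowest (1.95%, 0.718% to 4.19%). Of the odd peaks, 26 of 319 in the highest class did (8.15%, 5.39% to 11.7%) and 47 of 327 in the lowest (14.4%, 10.8% to 18.7%). Over the whole lists these shares were 50.3% and 2.45% for even and 8.54% and 15.3% for odd peaks, close to those of chromosome 9. The 140 pairs without a pulldown peak had median percentiles of 88.2 (even) and 39.5 (odd), and the 24 with one had 97.5 and 56.2. Shared peaks of the other autosomes had medians of 90.1 and 41.8 without a pulldown peak and 98.1 and 65.6 with one. The higher even percentile was thus not particular to chromosome 9. Shared peaks were found in every bin. In bin 5, 21 even peaks (17.9%) and 21 odd peaks (21.6%) were shared, and in the 3 bins from 25 to 40 Mb only 1 pair each was.

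Scores of chromosome 9 peaks were not high for their lists. The authors' score is a whole number per peak on a scale that no label or header gives, so it was only ranked within a list. The median percentile was 48.3 for even peaks (rank 15 of 19 autosomes), 48.7 for odd peaks (rank 13), 33.8 for pulldown peaks (rank 17) and 34.0 for consensus intervals (rank 15). The other autosomes ranged from 46.2 to 53.5 in the even list and from 31.5 to 74.0 in the pulldown list. The highest 10% of scores held 103 even peaks of chromosome 9 (9.07%, 7.47% to 10.9%) where the tie-inclusive share over the list was 10.1%, and 136 odd peaks (11.6%, 9.78% to 13.5%) against 10.1%. Of the pulldown peaks 4 of 42 were there against 9.86% of the list, and of the consensus intervals 3 of 24 against 9.7%. In the highest 1% of their lists chromosome 9 had 11 even peaks, 13 odd peaks and no pulldown peak, and 13 of the 18 other autosomes had no pulldown peak there either.

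The highest even peak of chromosome 9 lay at 24135904 to 24136541 with a score of 4159, rank 14 of 18114. It met an odd peak with a score of 3898 (rank 168 of 20596) and a pulldown peak with a score of 960 (rank 102 of 517). The next even peaks were at 23812378 to 23813068 (score 4071, rank 23) and at 108832504 to 108833089 (score 4052, rank 25), and both were in the consensus. The 4th, at 21920088 to 21920661 (score 3997), met an odd peak and no pulldown peak, and the 5th, at 63825088 to 63825596 (score 3770), met neither. Of the 5 highest even peaks, 4 thus had an odd partner.

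None of the 5 highest odd peaks met an even peak. The highest, at 13796761 to 13797505, had a score of 4561, rank 14. It and the next, at 106548726 to 106549482 (score 4321, rank 37), each met a pulldown peak with a score of 935. The others, at 64649492 to 64650052 (score 4149), 21802133 to 21802757 (score 4073) and 115838165 to 115838848 (score 4057), met none of the other lists.

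The 24 consensus intervals covered 11992 bp, with a median width of 484 bp and a range of 349 to 1118 bp, and lay between 6266382 and 123076193. In all 24 the even peak had the higher percentile, with medians of 97.5 (even) and 56.2 (odd). Peaks found in all of these lists on the other autosomes had medians of 98.1 and 65.6, so this ordering was not particular to chromosome 9. Even ranks ran from 14 to 2469 of 18114 with a median of 446.5, and 22 of the 24 even peaks were in the highest 10% of their list. Odd ranks ran from 168 to 16414 of 20596 with a median of 9001.5, 2 were in the highest 10%, and 9 had a percentile of 50 or less. Pulldown ranks ran from 29 to 489 of 517. By construction each consensus interval lies inside its even, odd and pulldown peak. It was identical to the odd peak in 15 of 24 cases, so the odd peak set both borders in most. These ranks describe the authors' selection, since thresholds and intersection chose the intervals.

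The highest consensus interval by pulldown score lay alone, at 14773966 to 14774447, with a pulldown score of 1181 (rank 29), an even rank of 146 and an odd rank of 4808. The next were at 65382079 to 65382587 and 65422399 to 65422898, with pulldown scores of 1126 and 1116, and then that at 24135950 to 24136498 with 960. The 5th, at 88296315 to 88296767 with 909, had an even rank of 1904 and an odd rank of 10892.

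Joining intervals with at most 1 Mb between them put 13 of the 24 (54.2%, 32.8% to 74.4%) into 4 groups. The 11 that lay alone started at 6266382, 14773966, 43999640, 55306328, 88296315, 100373356, 106885865, 108832556, 111067176, 120668145 and 123075704. Over all chromosomes 38.4% of consensus intervals had another within 1 Mb. The interval of the chromosome 9 share includes that value, and the share ranked 3rd among autosomes, level with chromosome 5. The share also depends on how many intervals a chromosome holds. The largest group, of 5, equalled the largest on any autosome, again with chromosome 5.

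The group of 5 ran from 64795281 to 66608200, over 1813 kb. Its members started at 64795281, 65382079, 65422399, 66182200 and 66607712, with pulldown scores of 774, 1126, 1116, 727 and 866. The 2nd and 3rd were 39.8 kb apart, the closest consensus neighbours of the chromosome. The group's span held 21 even and 28 odd peaks and no control peak, and 1 further pulldown peak, at 66035544 to 66036058, that met an odd peak only.

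The group of 4 ran from 22941271 to 24136498, over 1195 kb of bin 5. Its members, starting at 22941271, 23608219, 23812447 and 24135950, had pulldown scores of 790, 787, 716 and 960 and even ranks of 89, 719, 23 and 14. The odd ranks were 4913, 12630, 1037 and 168. Members at 23812447 and 24135950 thus ranked high in both pools. In the pulldown they ranked 440th and 102nd, at percentiles of 15.1 and 80.4. The span held 29 even and 16 odd peaks and 3 control peaks, and it was the only one of the 4 groups with a control peak in its span. The remaining pairs lay at 7280923 to 7343754 (62.8 kb, pulldown scores 850 and 670) and at 96200680 to 96342804 (142 kb, pulldown scores 867 and 695). The first of these holds the widest interval of the chromosome, 1118 bp, where the pulldown, even and odd peaks were all over 1 kb wide. The longest stretch without a consensus interval, 21.7 Mb, followed the group of 5.

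**Figure D4:**
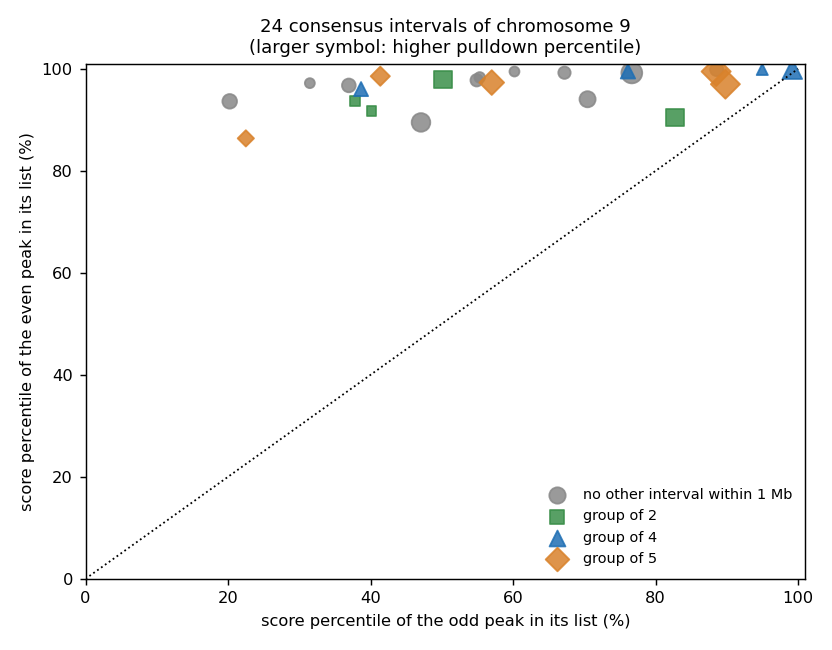
Score percentile of the odd peak (x axis) against that of the even peak (y axis), each within its own list, for the 24 consensus intervals of chromosome 9, with symbols by group and larger symbols for a higher pulldown percentile. All 24 lie above the dotted line of equal percentile, with even values from 86.4 to 99.9 and odd values from 20.2 to 99.2.

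The other 18 pulldown peaks missed a partner in 1 pool. Of these, 13 met an odd peak only and 5 an even peak only, and every pulldown peak of chromosome 9 met at least 1 pool. These were 30.95% and 11.9% of the 42, where the other autosomes had 39.4% and 8.41%, and 0.442% there met neither pool. The odd partners of the 13 were strong, with a median percentile of 96.9, against 56.2 for the odd peaks of the consensus, where the other autosomes had 98.2 and 65.6. Their nearest even peak lay between 0.688 kb and 118 kb away. They include the highest pulldown peak of the chromosome, at 13699780 to 13700393, with a score of 1303 (rank 17) and an odd score of 3889, and one at 71739421 to 71740012 with 1055. The even partners of the 5 had a median percentile of 88.1, below the 97.5 of the consensus even peaks, and the other autosomes had 90.8 and 98.1.

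A pair of pulldown peaks near 13.8 Mb met peaks of different pools. The peak at 13794716 to 13795271 (score 806) met an even peak of rank 267 and lay 0.931 kb from the nearest odd peak. The peak at 13796795 to 13797419 (score 935) met the highest odd peak of the chromosome and lay 0.688 kb from the nearest even peak. Both pools thus had a strong peak within a few kb here, and neither site entered the consensus.

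Control peaks of chromosome 9 gathered in a block of 38.2 kb at the start of called positions, from 3000030 to 3038227. It held 58 control peaks, namely 19 of the 25 no-probe peaks (76.0%), 11 of the 23 RNase peaks (47.8%) and 28 of the 34 input peaks (82.4%). Mouse chromosomes carry their centromere at this end. In the first 1 Mb there were 19 no-probe, 12 RNase and 29 input peaks, against 18.3%, 11.2% and 17% of the nuclear peaks of each list in the first 1 Mb of their chromosomes, counts of which those on chromosome 9 are themselves the larger part. No other autosome had more than 3 peaks of any control list there.

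The block was a row of control peaks of middling to high rank. No-probe scores in it ran from 49 to 252 with a median of 74, RNase scores from 24 to 179 with a median of 57, and input scores from 248 to 721 with a median of 431.5. The highest of each lay at 3025416 to 3025657 (no-probe), 3002256 to 3002465 (RNase) and 3015696 to 3015757 (input), each the 3rd highest of its list on the chromosome. The median percentiles within the lists were 75.8, 55.7 and 75.1. The controls met each other often: 9 no-probe peaks of the block met both an RNase and an input peak, 3 met neither, and each of the 11 RNase peaks met at least 1 other control. On the whole chromosome 13 of 25 no-probe peaks met an RNase peak, against 32 of 124 (25.8%) in the whole list. Of the 34 input peaks 17 met a no-probe peak and 13 an RNase peak, against 25 (9.26%) and 18 (6.67%) of all 270. These whole-list counts include the chromosome 9 peaks, which make up most of the input ones.

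No Bloodlinc peak lay in this block. The first even peak, at 3088820 to 3089145, started 50.6 kb beyond its end and the first odd peak, at 3430508 to 3430804, 392 kb beyond. The first 1 Mb held 8 even and 3 odd peaks and no pulldown peak or consensus interval. The first pulldown peak and the first consensus interval, at 6266382 to 6266867, lay 3.23 Mb from the block. No label or header says whether peaks that met control signal were taken out of the other lists, and this was not tested.

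**Figure D5:**
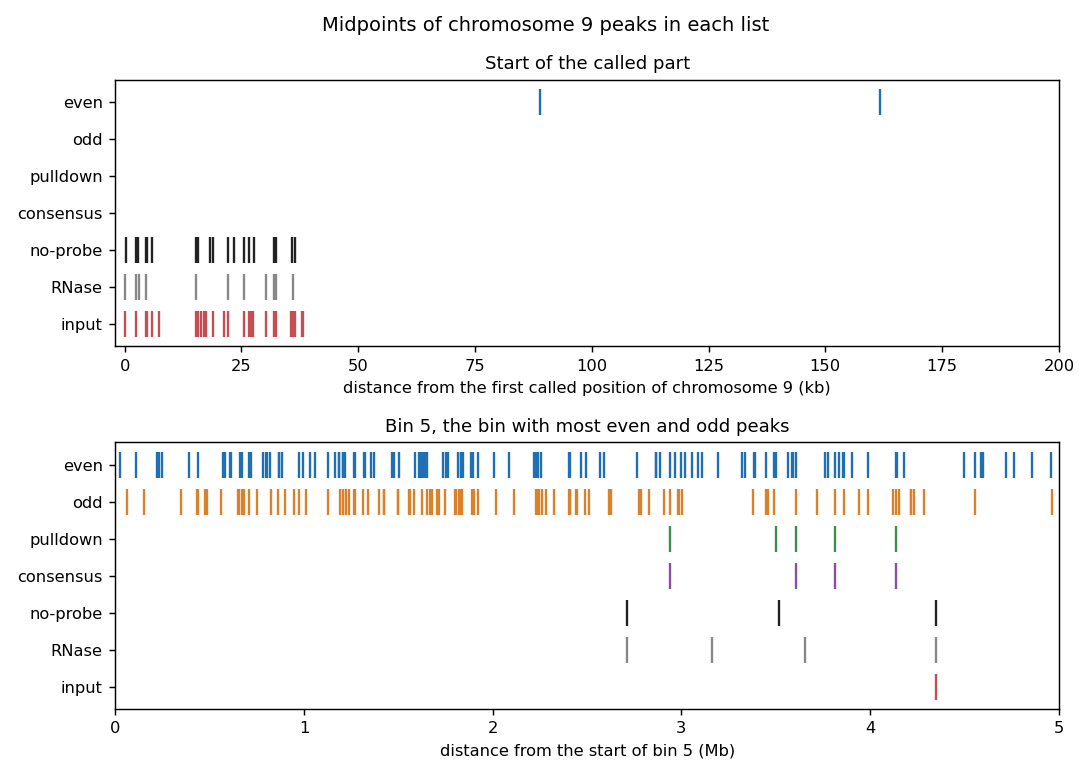
Midpoints of chromosome 9 peaks in each list (rows), by distance from the first called position in kb (top) and by distance from the start of bin 5 in Mb (bottom). In the top panel the control marks gather in the first 38.2 kb and the first even peak appears beyond it. Marks show midpoints and not the length that peaks cover. In the bottom panel 8 control peaks share bin 5 with 117 even, 97 odd, 5 pulldown and 4 consensus peaks.

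Outside the block, 24 control peaks were spread over the chromosome, of which 13 lay in the first 25 Mb, 22 of the 121 Mb of called positions and the stretch with the high listed share. Of these, 8 lay in bin 5, the bin with the most even and odd peaks. The 8 were 3 of 6 no-probe, 4 of 12 RNase and 1 of 6 input peaks. At 22711996 to 22712129 a no-probe peak met an RNase peak, with scores of 35 and 44. At 24346418 to 24346664 all 3 controls had a peak, with scores of 426 (no-probe, rank 4), 299 (RNase, rank 10) and 863 (input, rank 4). This site lay 210 kb beyond the consensus interval at 24135950, 150 kb from the nearest even peak and 59.9 kb from the nearest odd peak. The highest no-probe peak of the chromosome, at 35112778 to 35113161 with a score of 617, also had an RNase (511) and an input (733) counterpart, and its nearest even and odd peaks were 13.6 kb and 15.3 kb away. The part of the control signal in the pool counts of bin 5 and of the first 25 Mb was not tested.

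No consensus interval, pulldown peak or even peak of chromosome 9 met a control peak. The distance from a consensus interval to the nearest control peak had a median of 4019 kb and ran from 44.8 kb to 14687 kb. It was under 1 Mb for 7 of the 24 intervals and under 100 kb for 1, that at 23608219, whose neighbour was an RNase peak with a score of 30 at 23653451. The single overlap with a control was an odd peak at 123782128 to 123782427, with a score of 595 (rank 19911 of 20596), which held an input peak of 77 bp with a score of 309. It met no even peak. With 24 control peaks outside the block, few overlaps could occur. The share of Bloodlinc peaks that met a control peak over all chromosomes is not given here. The absence of overlap can therefore not be called particular to chromosome 9.

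Peak widths on chromosome 9 were those of the other autosomes in the Bloodlinc lists. Median widths were 432 bp for even, 439 bp for odd and 571 bp for pulldown peaks, against 437, 442 and 565 bp elsewhere. Control peaks differed in part, with medians of 218 bp for the no-probe, 169 bp for the RNase and 58 bp for the input list, against 134, 128 and 69 bp on the other autosomes.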

How the data were processed

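ChIRP-seq peak lists of 6 libraries of MEL cells and 1 consensus list were used. Per the submitters' processing notes, Bowtie2 and bedtools were used with build mm9, without their roles. The peak caller and its thresholds stand as not given in the sources used here. The only measurement is the score the authors deposited for each peak, ranked within a list. Read depth is unknown.

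Positions were converted to count from 1. Span ran from the first to the last position called in any list. Midpoints placed peaks in 5 Mb bins, peaks met when they overlapped by at least 1 bp, consensus intervals were joined over gaps of at most 1 Mb, and 95% intervals are exact binomial. Percentiles rank a peak in its whole list. With 1 library per condition no test was made. Sites named were the 5 highest peaks of each Bloodlinc list, the 3 highest of each control list, all consensus intervals, bins at either extreme, and peaks meeting a control; other sites were named after their values were seen. The members, lists and comparisons were chosen with earlier results of these data known, and the comparison of the first 25 Mb with the rest was added after the bins were seen. Overlap and grouping were tested on simulated data. Python 3.11.15, numpy 2.4.6, pandas 2.3.3, SciPy 1.17.1 and matplotlib 3.10.9 were used. RefSeq tables on another build were not used here.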

Additional observations from a re-analysis of the deposited data

How the results depend on the processing

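Of 55 alternative values for 20 results, 43 stayed within the counting interval of the reported value or within 1.5 times a count, where a highest bin also had to overlap 20 to 25 Mb. Among them was the listed share in the first 25 Mb when it ended at 20 or 30 Mb. Those stretches are nested with the first 25 Mb and share peaks with it, so they are no separate check of the border. Ending at 30 Mb, the odd share was 22.1%, near the lower limit of 21.99%. The cause of the moves was not tested except where the setting itself holds fewer peaks. With the top 50% of each list by score, 11.1% of even peaks met an odd peak and 10.4% of odd peaks an even peak, the highest bins had 9.8 even (at 10 to 15 Mb) and 9.4 odd peaks per Mb, and 2 consensus intervals of the 9 left were in a group. The densest bin had 34.5 even peaks per Mb with 2 Mb bins, 14.5 even and 13.5 odd with 10 Mb bins, and 21.4 even (at 12.5 to 17.5 Mb) with bins shifted by 2.5 Mb. The even density ratio was 1.22 without bin 5 and 1.14 without the first 25 Mb, and the odd ratio 1.09 without the first 25 Mb. A gap of 0.5 Mb split the group of 5, leaving a largest group of 3. For the pulldown, no percentile could be given without peaks that met another pool, as every one met a pool. No paired analysis was possible because each condition had 1 library and no test was made.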
